A study of Mus musculus with 14 samples.

Results

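The nuclear genes of the mitochondrial respiratory chain were followed in mouse effector CD8+ T cells as a set of 87 genes out of 19937 that had a probe set of their own on the array. Membership went by symbol: the Ndufa, Ndufb, Ndufc, Ndufs and Ndufv families, Uqcr, Cox4i, Cox5, Cox6, Cox7 and Atp5 genes, Sdha to Sdhd and Cycs, without pseudogenes. By symbol, the set holds 36 subunits of complex I (Ndufa4, now regarded as a complex IV subunit, is counted here with the other Ndufa genes) and 7 Ndufaf genes of complex I assembly, 4 genes of complex II, 8 of complex III, cytochrome c, 14 of complex IV and 17 of complex V. A filter on low signal left 85 of them among the 14438 genes tested. The assembly factor Ndufaf6 and the testis isoform Cox7b2 did not pass it, with group means of 4.17 to 4.44 and 3.94 to 4.21 on the log2 scale.

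The respiratory chain sits in the inner mitochondrial membrane and passes electrons, taken from NADH by complex I and from succinate by complex II, through complex III and cytochrome c to complex IV, where oxygen is reduced. The protons pumped on the way drive ATP synthase, complex V. In CD8+ T cells, proliferating effectors run glycolysis beside respiration, long-lived memory cells are known for a high respiratory capacity, and cytochrome c that leaves the mitochondrion triggers caspases, a step that Bim promotes upstream.

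RNA of sorted effector CD8+ T cells was hybridised to 14 single-colour arrays, 1 per sample, on day 6 after infection with Listeria carrying ovalbumin. The groups were wild-type (WT) KLRG1hi cells with 3 arrays, Id2KO KLRG1lo, Id2KOBimKO KLRG1lo and BimKO KLRG1lo cells with 2 arrays each, and WT KLRG1lo cells with 5 arrays. All were C57BL/6J cells that came from fetal liver chimeras and were moved into congenic recipients, so the transfer and the infection are common to all groups. The labels name OT-I cells, which recognise a peptide of ovalbumin, for every group but Id2KOBimKO, and do not say how the alleles were deleted or whether animals were pooled. Cells were purified by flow cytometry. Id2 restrains E proteins, Bim is the death-promoting product of Bcl2l11, and KLRG1 marks terminal effectors. Nothing in the labels ties replicates to separate animals, so each p-value speaks of the spread among these arrays, which may be technical. In bulk RNA, fewer cells of a type and less RNA per cell cannot be told apart.

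Values are log2 of the deposited signal. Klrg1 was 4.76 log2 higher in KLRG1hi than in WT KLRG1lo cells (SE 0.28, limma adjusted p = 7.3e-08), and Id2 fell by 1.13 log2 in Id2KO (adjusted p = 0.0162) and fell by 1.19 in Id2KOBimKO (adjusted p = 0.0182) against WT. Bcl2l11 averaged 7.80 on arrays labelled Id2KOBimKO, 7.51 on those labelled BimKO and 7.60 in WT KLRG1lo cells. Where its probe set lies relative to the deletion is not stated in what was used here, so this checks nothing and Bim status rests on the labels. The Id2KO arrays stood apart in sex-linked RNA: Xist, made from the inactive X chromosome, was 4.47 to 4.99 there and 8.37 to 10.36 on the other 12 arrays, and Uty on the Y chromosome was 6.96 to 7.78 against 3.33 to 3.99. Sex and Id2 genotype cannot be told apart between Id2KO and WT. Arrays were also parted, after the data were seen, into 2 sets at the widest gap between their medians of unnamed probe sets, 5.01 to 5.07 on 6 arrays and 5.16 to 5.39 on 8. The gap was 0.085 log2, and the step from 5.27 to 5.34 inside the higher set was nearly as wide, so the division is not a sharp one. The lower set held KLRG1hi arrays 1 and 2, the first Id2KO and the first Id2KOBimKO array, and WT KLRG1lo arrays 1 and 2, with the remaining 8 in the higher set, among them WT KLRG1lo arrays 3 to 5 and every array labelled BimKO.

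Nuclear genes of the chain share promoter sites for factors such as NRF1, ETS family members and YY1, and these sequences were searched in windows of 250 bases before to 50 after each start (RefSeq, GRCm38.p6, 72 members matched). The NRF1 core GCGCATGC, on either strand (GCATGCGC on the other), was in 13 of 72 members, 18.1%, and in 3.94% of 17492 protein-coding genes. The YY1 core AAGATGGC (GCCATCTT) was in 10 members, 13.9%, and in 3.57% of genes. The ETS core CCGGAAGT (ACTTCCGG) was in 4 members, 5.56%, against 5.69% of genes. A match is a description of letters and not of binding. The 250 bases before 5 starts are shown, with matches in capitals: cytochrome c, a complex II and a complex IV subunit with the NRF1 core (in Cox6a1 the match to both strands overlaps), the complex V gene Atp5h with the ETS core, and the muscle isoform gene Cox7a1, which had none of the 3 cores. The positions are those of the printed bases.
Cycs (chr6:50566570-50566819, minus strand): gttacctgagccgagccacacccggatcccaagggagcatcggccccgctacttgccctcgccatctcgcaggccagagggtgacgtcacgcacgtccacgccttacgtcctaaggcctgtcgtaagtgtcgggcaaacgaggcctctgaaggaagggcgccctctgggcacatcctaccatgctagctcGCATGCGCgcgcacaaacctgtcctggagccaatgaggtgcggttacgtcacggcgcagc
Sdhb (chr4:140961021-140961270, plus strand): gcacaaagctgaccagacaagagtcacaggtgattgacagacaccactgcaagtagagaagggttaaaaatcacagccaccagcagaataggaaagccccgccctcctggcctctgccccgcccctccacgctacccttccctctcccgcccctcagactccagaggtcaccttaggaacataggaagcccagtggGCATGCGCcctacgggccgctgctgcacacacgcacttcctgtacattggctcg
Cox6a1 (chr5:115348959-115349208, minus strand): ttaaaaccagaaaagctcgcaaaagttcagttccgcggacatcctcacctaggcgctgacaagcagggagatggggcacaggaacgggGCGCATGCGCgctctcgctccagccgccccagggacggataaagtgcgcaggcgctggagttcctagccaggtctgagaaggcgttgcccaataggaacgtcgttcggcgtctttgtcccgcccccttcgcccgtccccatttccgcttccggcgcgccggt
Atp5h (chr11:115419920-115420169, minus strand): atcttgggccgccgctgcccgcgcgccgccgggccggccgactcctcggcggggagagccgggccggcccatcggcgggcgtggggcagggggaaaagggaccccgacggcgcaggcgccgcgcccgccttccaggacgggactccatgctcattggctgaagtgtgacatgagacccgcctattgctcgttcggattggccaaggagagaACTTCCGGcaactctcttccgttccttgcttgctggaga
Cox7a1 (chr7:30183921-30184170, plus strand): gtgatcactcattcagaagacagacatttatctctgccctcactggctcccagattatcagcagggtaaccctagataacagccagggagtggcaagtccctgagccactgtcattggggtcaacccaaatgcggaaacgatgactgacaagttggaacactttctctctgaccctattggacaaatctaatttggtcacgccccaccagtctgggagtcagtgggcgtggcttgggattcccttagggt

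Of the 85 members tested, 82 lay above the median of unnamed probe sets on all 14 arrays. The filter on low signal, at each array's 40th percentile (5.14 to 5.37), lies close to those medians (5.01 to 5.39). The count is thus partly set by the filter, and the share over all genes was not worked out. The median over members on each array was 7.74, 8.11 and 8.18 in WT KLRG1hi, 8.45 and 7.92 in Id2KO, 8.26 and 7.77 in Id2KOBimKO, 7.88 and 8.29 in BimKO, and 7.98, 8.38, 7.62, 7.63 and 7.77 in WT KLRG1lo. Every group overlapped WT KLRG1lo, whose second array was higher than all other arrays but 1 of the Id2KO arrays. Arrays of the same group differed by as much as the groups did, with a pooled SD of 0.309.

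**Figure D1:**
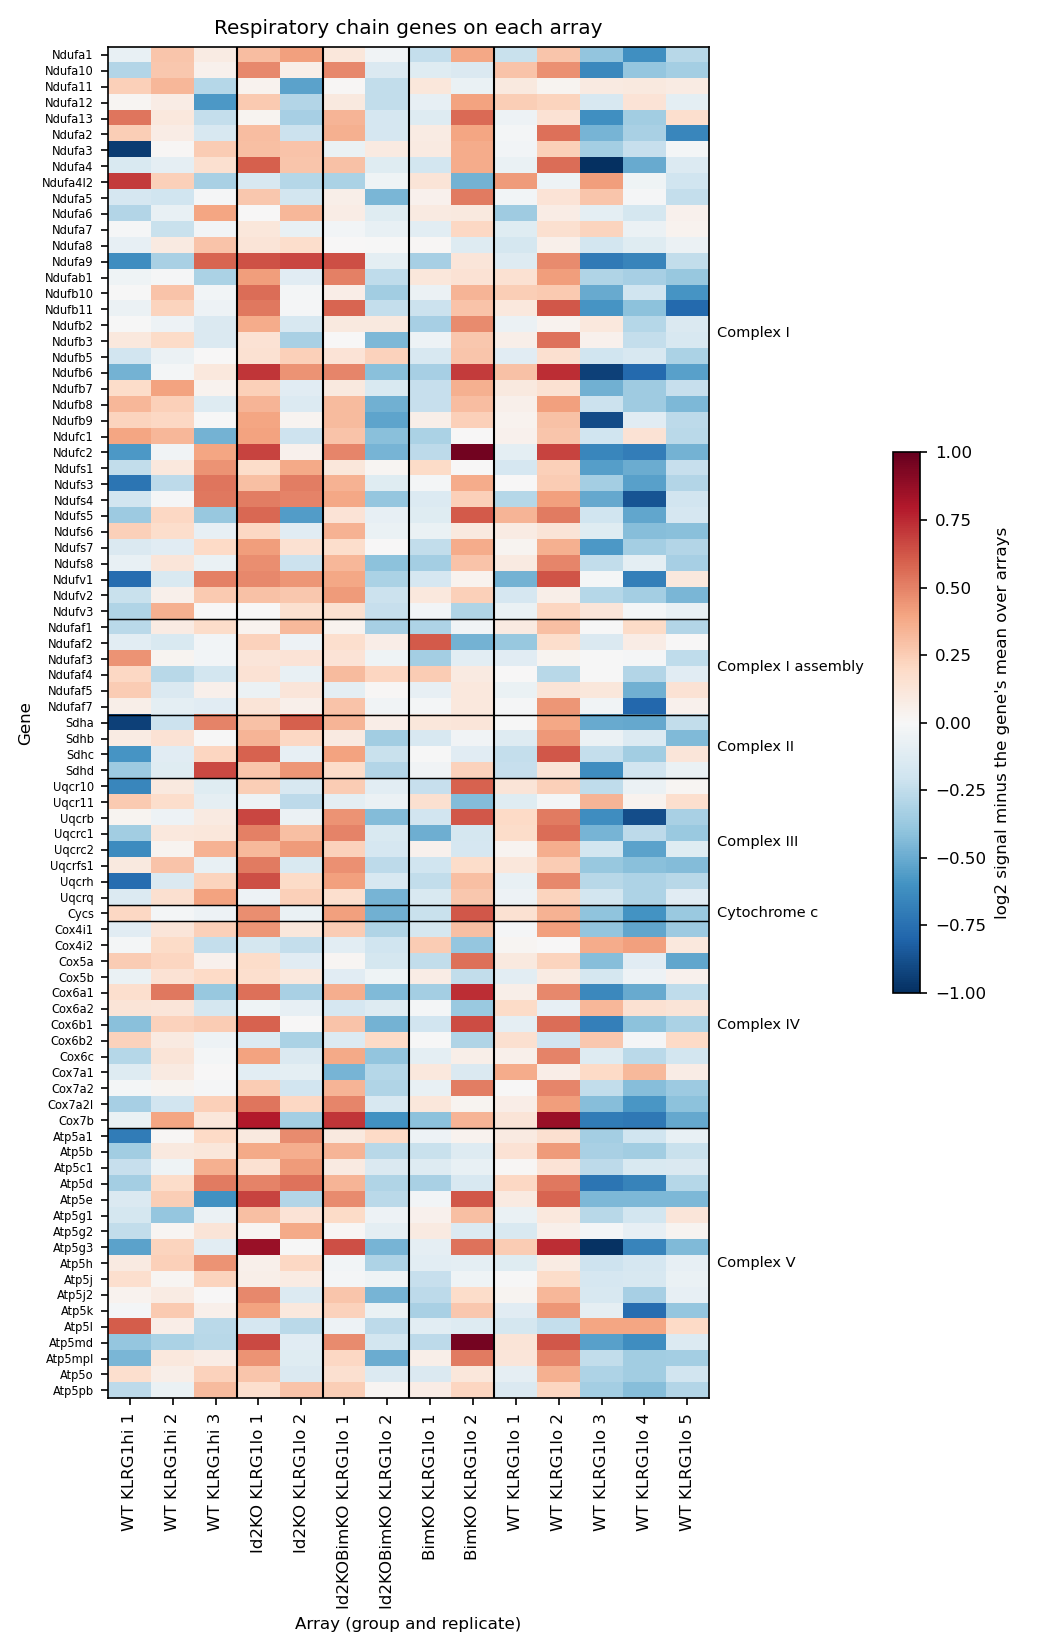
The log2 signal of 85 genes of the chain (rows, by complex) on 14 arrays (columns, by group), each gene minus its mean over arrays; colours end at 1 log2 above or below. Most rows share light and dark columns, such as WT KLRG1lo arrays 3 to 5 on the low side, while a few rows such as Atp5l and Cox4i2 run the other way.

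**Figure D2:**
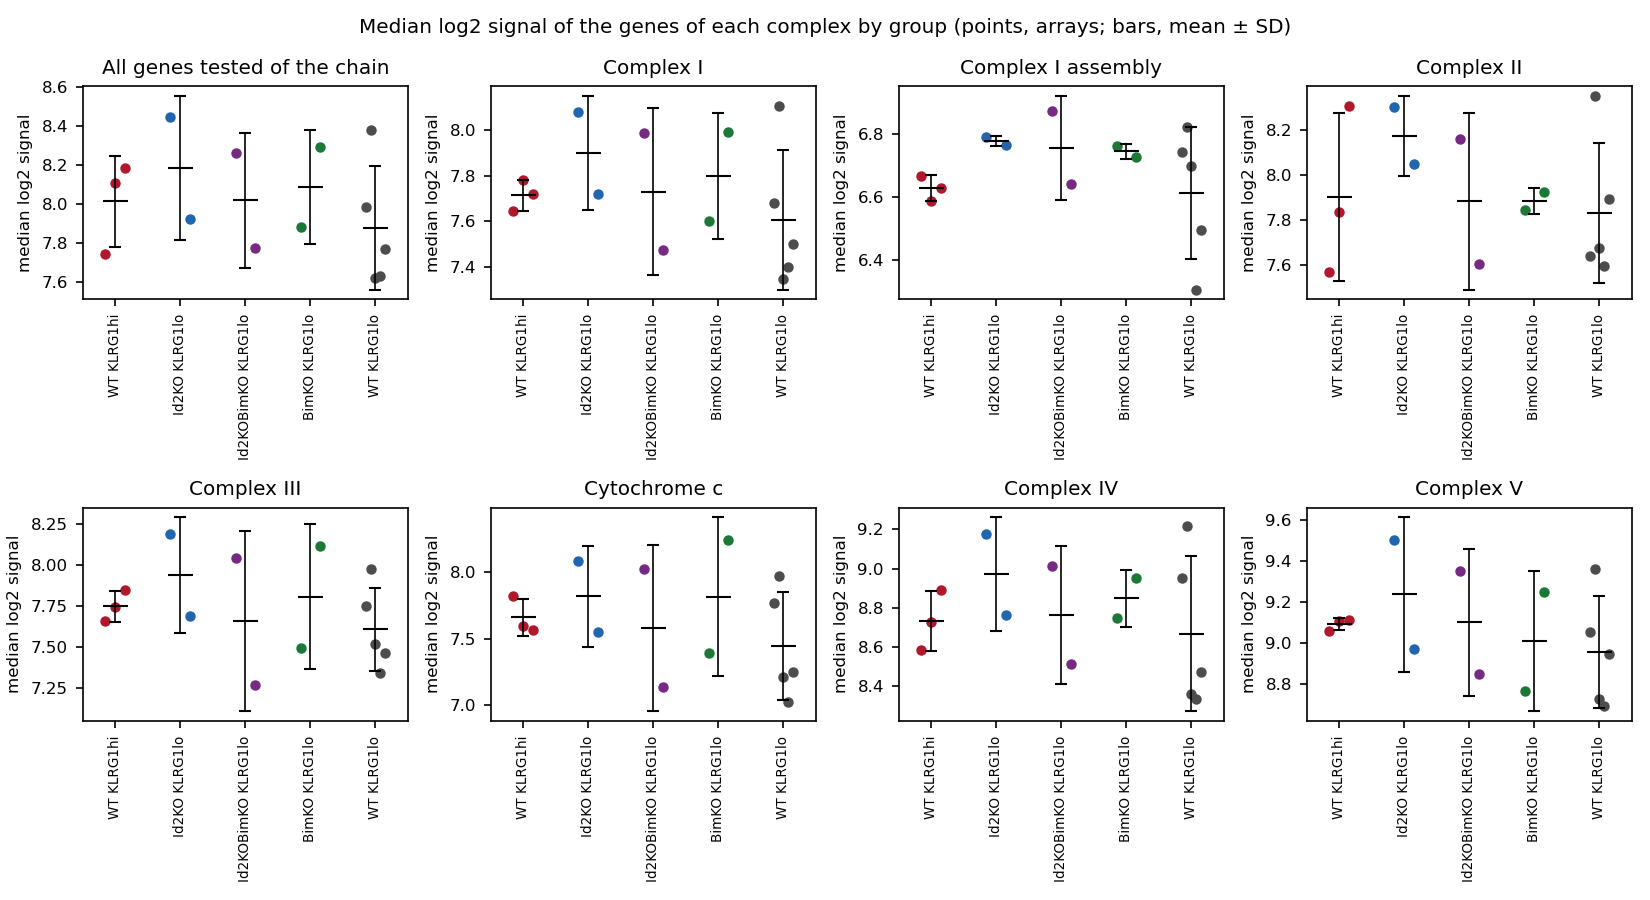
The median log2 signal of the members tested in each complex on each array (points), with mean ± SD of the group (bars). For complexes I and IV the lowest and the highest point are both WT KLRG1lo arrays.

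KLRG1hi against KLRG1lo WT cells sets terminal effectors beside WT cells of the same infection that carry little KLRG1. No member passed an adjusted p of 0.05 in limma, where 0.942% of all genes did. At an unadjusted p under 0.05 there was 1 member of 85, with 7.2% of all genes, and that gene was also the 1 member whose KLRG1hi arrays all lay above the KLRG1lo arrays, against 2.41% of all genes. The median difference was 0.09 log2, with 61 of 85 above 0, beside 0.00165 over all genes tested. The median half-width of the members' 95% intervals was 0.43 log2, which bounds what these arrays can resolve for 1 gene. Over all 87 members the median was 0.08. It was 0.17 without KLRG1hi array 1 and 0.03 without WT KLRG1lo array 4.

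Complex V gave the smallest p. Atp5h, the d subunit of the stalk that holds the catalytic head, was 10.75, 10.90 and 11.11 on KLRG1hi arrays, against 10.54, 10.74, 10.45, 10.49 and 10.58 on WT KLRG1lo arrays. The lowest KLRG1hi array was barely above the highest WT KLRG1lo array. The difference was 0.36 (SE 0.14), or 1.28-fold, and did not pass (adjusted p = 0.451). Atp5o, which encodes the OSCP subunit at the top of that stalk, differed by 0.27 (SE 0.17, adjusted p = 0.894) with overlapping arrays. Of 17 complex V genes 12 were above 0, with a range of -0.22 to 0.36 and a median of 0.08.

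In complex I, 27 of 36 subunits were above 0, with a median of 0.12 and a range of -0.23 to 0.39. The accessory subunit Ndufb7 was 8.94, 9.17 and 8.79 in KLRG1hi, against 8.86, 8.91, 8.28, 8.40 and 8.53 in WT KLRG1lo. Its difference was 0.37 (SE 0.18, adjusted p = 0.734). Ndufs1, the largest iron-sulfur subunit, differed by 0.35 (SE 0.19, adjusted p = 0.826), and Ndufa1, a small membrane arm subunit, by 0.34 (SE 0.19, adjusted p = 0.832). Groups overlapped for each of these complex I genes.

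No gene of complexes II to IV had an unadjusted p under 0.05. In complex II, Sdhd, the membrane anchor that binds ubiquinone, differed by 0.25 (SE 0.21, adjusted p = 0.951), and the sign turned to -0.05 without KLRG1hi array 3. Sdhb, the iron-sulfur subunit, differed by 0.14 (SE 0.17, adjusted p = 0.991). In complex III, Uqcrfs1, the Rieske iron-sulfur protein, differed by 0.28 (SE 0.21, adjusted p = 0.943) and the small subunit gene Uqcrq by 0.23 (SE 0.18, adjusted p = 0.943). Cycs was 7.82, 7.60 and 7.56 in KLRG1hi, against 7.77, 7.97, 7.21, 7.02 and 7.25 in WT KLRG1lo. Its difference was 0.22 (SE 0.25, adjusted p = 0.986), and its 3 probe sets gave 0.22, 0.19 and 0.24. The third averaged 4.79 over the 14 arrays, below the medians of unnamed probe sets (5.01 to 5.39), so it adds little. In complex IV, the matrix-side subunit Cox5a differed by 0.32 (SE 0.20, adjusted p = 0.887) and the muscle isoform Cox7a1 by -0.22 (SE 0.13, adjusted p = 0.887).

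The KLRG1hi result turned on which WT KLRG1lo arrays it was set against. The members' median was -0.16 against arrays 1 and 2, of the lower background set, and 0.24 against arrays 3 to 5, of the higher set. Cycs, Sdhb and Uqcrfs1 were at -0.21, -0.08 and -0.08 against arrays 1 and 2. With array quality weights 29 members passed, 27 higher and 2 lower in KLRG1hi, where 30.9% of all genes did, but that fit stopped before it converged and gave KLRG1hi array 2 a weight of 93.5, beside 0.18 to 1.53 for the others. With the gene-by-gene form of the weights, added after the data were seen, 3 passed, where 7.87% of all genes did.

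**Figure D3:**
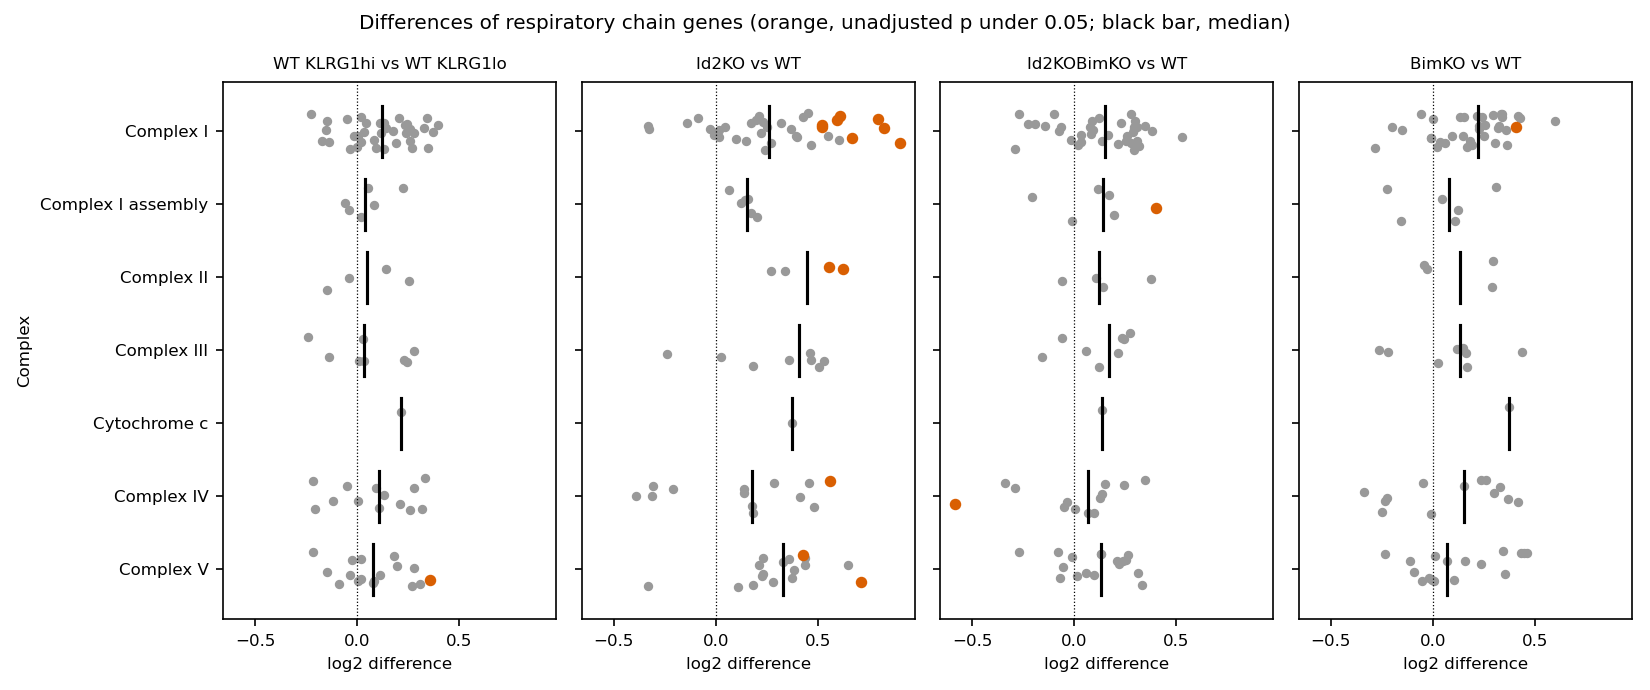
Log2 differences of the 85 genes tested in 4 comparisons, with WT KLRG1lo arrays as the shared control, by complex. Points are genes, orange where the unadjusted p was under 0.05, and black bars are medians; the medians lie above 0, furthest for complexes II and III in Id2KO against WT (0.45 and 0.41).

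Id2KO against WT KLRG1lo cells sets cells without Id2 beside WT cells of the same KLRG1 gate. No member passed, where 0.111% of all genes did. At an unadjusted p under 0.05 there were 13 of 85 members (15.3%), all higher in Id2KO, which is below the 18.1% of all genes. Both Id2KO arrays lay above all WT arrays for 12 members and below them for 2, where 14.2% of all genes did so in the higher direction and 14.2% in the lower. The median difference was 0.27, with 73 of 85 above 0, beside 0.03 over all genes. The smallest adjusted p was 0.275, and the median half-width of the 95% intervals was 0.49 log2. The members' median was 0.15 without Id2KO array 1 and 0.41 without array 2.

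Complex I by symbol held 8 of the 13 members with an unadjusted p under 0.05, Ndufa4 among them. Ndufa9, an accessory subunit near the ubiquinone site, was 8.23 and 8.27 on the Id2KO arrays, against 7.47, 8.08, 6.90, 6.94 and 7.36 on WT KLRG1lo arrays. The groups did not overlap, though WT array 2 came close to Id2KO, and the difference was 0.90 (SE 0.32), or 1.87-fold. Ndufs4, an accessory subunit whose loss causes Leigh-like disease in mice, was 8.45 and 8.44 in Id2KO, against 7.65, 8.35, 7.42, 7.08 and 7.75 in WT. Its difference was 0.79 (SE 0.28). The replicates of Id2KO were close together for these genes while the WT arrays were spread widely.

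Ndufa1 was 7.61 and 7.71 in Id2KO, against 7.08, 7.57, 6.90, 6.68 and 7.02 in WT, a difference of 0.61 (SE 0.21). Ndufa1 lies on the X chromosome, as do Ndufb11 and Cox7b, which differed by 0.47 (SE 0.31) and 0.41 (SE 0.41), so for these genes the sex difference of the arrays stands beside the genotype. The iron-sulfur subunits Ndufv2 and Ndufs1 each differed by 0.52 (SE 0.19 and 0.21), and Ndufv2 was 8.81 and 8.78 in Id2KO, against 8.34, 8.57, 8.23, 8.17 and 8.06 in WT. Each of these, other than Ndufb11 and Cox7b, had an adjusted p of 0.275. The 6 Ndufaf assembly genes tested were all above 0 but small, from 0.07 to 0.20. A separate list of 33 other assembly factors of the chain had a median of 0.31, with 26 above 0 and none passed.

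All 4 genes of complex II, the succinate dehydrogenase that also belongs to the TCA cycle, were above 0, with a median of 0.45. Sdhd was 8.01 and 8.18 in Id2KO, against 7.50, 7.86, 7.11, 7.55 and 7.67 in WT, and did not overlap, with a difference of 0.56 (SE 0.24). Sdha, the flavoprotein, differed by 0.62 (SE 0.29) with overlap, since WT array 2 reached 9.31. In complex III, the core protein Uqcrc2 differed by 0.46 (SE 0.24, adjusted p = 0.281) and the hinge protein Uqcrh by 0.51 (SE 0.27, adjusted p = 0.282). Cycs was 8.08 and 7.55 in Id2KO and straddled the WT values given above, with a difference of 0.37 (SE 0.29, adjusted p = 0.380).

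In complex IV by symbol, Cox7a2l differed by 0.56 (SE 0.25, adjusted p = 0.275). Its arrays overlapped, at 9.46 and 9.13 in Id2KO against 8.98, 9.34, 8.50, 8.34 and 8.51 in WT. The lung isoform gene Cox4i2 was at 5.78 and 5.71 in Id2KO, below 5.97, 5.96, 6.32, 6.36 and 6.06 in WT (difference -0.39, SE 0.19, adjusted p = 0.275). In complex V, Atp5d, the delta subunit of the rotating central stalk, differed by 0.71 (SE 0.30) and Atp5pb, the b subunit of the stalk, by 0.43 (SE 0.19), both at an adjusted p of 0.275 and with overlap. Of 17 complex V genes, 16 were above 0. Atp5d was 9.79 and 9.83 in Id2KO, against 9.50, 9.82, 8.56, 8.62 and 9.01 in WT.

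These values also moved with the WT arrays used and with array spread. The members' median was 0.008 against WT KLRG1lo arrays 1 and 2 and 0.44 against arrays 3 to 5, where 7 members passed (Ndufb6, Atp5d, Ndufa4, Ndufa9, Ndufa1, Ndufs4 and Cox7a2l) and 4.9% of all genes did. Subtracting each array's median moved the median of all genes in this comparison to 0.15 and that of the members to 0.39. With the array's spread as a covariate the median was -0.03, and Atp5d, Sdha, Uqcrc2 and Uqcrh were at -0.04, -0.11, -0.08 and -0.09. With quality weights 19 members passed, where 22.4% of all genes did, and with the gene-by-gene weights 13 did, where 17.7% of all genes did.

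**Figure D4:**
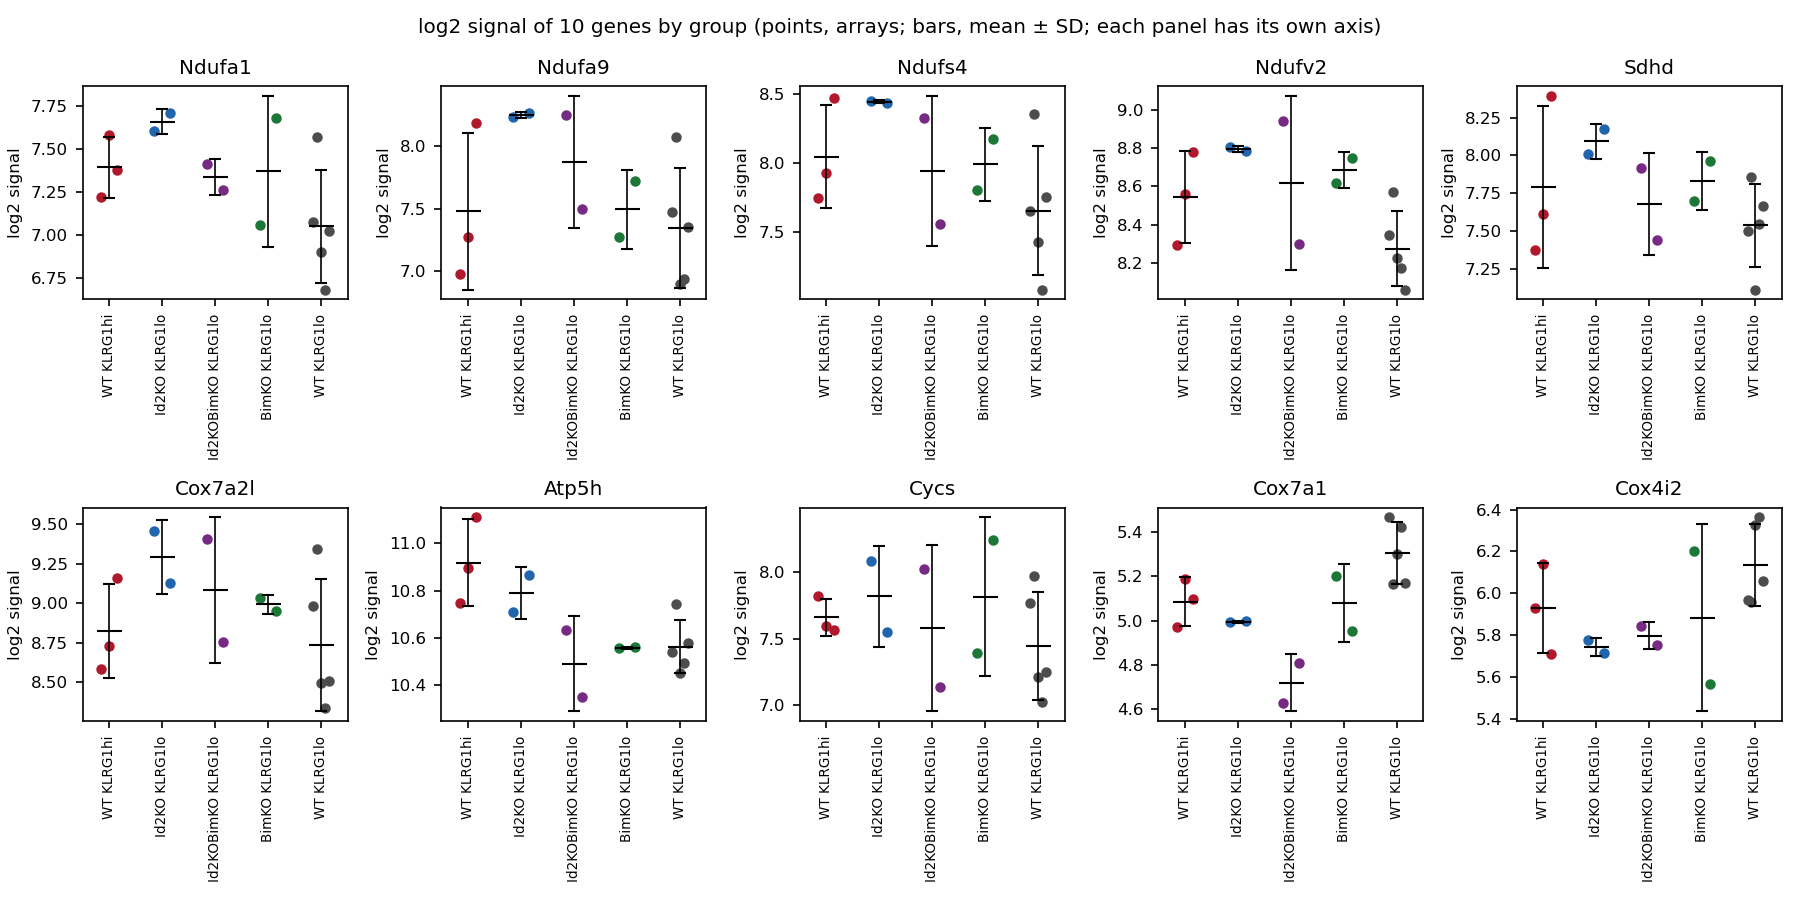
The log2 signal of 10 genes of the chain on each array (points) by group, with mean ± SD (bars) and an axis for each panel. Ndufa1, Ndufa9, Ndufs4, Ndufv2 and Sdhd are above every WT KLRG1lo array in Id2KO, Atp5h is so in WT KLRG1hi, and Cox7a1 lies lowest in Id2KOBimKO.

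On the arrays labelled Id2KOBimKO, against the same WT KLRG1lo controls, no member passed, where 0.0623% of all genes did. At an unadjusted p under 0.05 there were 2 members (2.35%), with 3.95% of all genes. The median was 0.13, with 61 of 85 above 0, beside -0.002 over all genes. It was -0.10 without Id2KOBimKO array 1 and 0.35 without array 2, so 1 array sets its sign. With WT limited to its KLRG1lo arrays 1 and 2 the median was -0.15, and with WT limited to arrays 3 to 5 the value was 0.31. The heart and muscle isoform Cox7a1 had the smallest p of any member here: it was 4.63 and 4.81 in Id2KOBimKO, against 5.46, 5.16, 5.30, 5.42 and 5.17 in WT. The difference was -0.58 (SE 0.15), or 0.67-fold, with an adjusted p of 0.623. It was 1 of 4 members whose Id2KOBimKO arrays all lay below WT, where 7.27% of all genes did, and its signal was near that of unnamed probe sets. Ndufaf4, an assembly factor of complex I, was 6.76 and 6.66 in Id2KOBimKO, against 6.44, 6.17, 6.44, 6.15 and 6.33 in WT (difference 0.40, SE 0.17, adjusted p = 0.785). It was 6.70 and 6.54 in BimKO, also above WT, with a difference of 0.31 (SE 0.17, adjusted p = 0.657). Medians in Id2KOBimKO were 0.15 for complex I (27 of 36 above 0), 0.17 for complex III (6 of 8), 0.13 for complex V (12 of 17), 0.12 for complex II (3 of 4) and 0.07 for complex IV (8 of 13).

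On the arrays labelled BimKO no member passed, and neither did any other gene (0% of all genes). At an unadjusted p under 0.05 there was 1 member, with 6.91% of all genes. That was Ndufv2, at 8.62 and 8.75 in BimKO, above the WT values given earlier, with a difference of 0.41 (SE 0.19, adjusted p = 0.657). The median was 0.15, with 61 of 85 above 0, beside -0.02 over all genes. It was 0.30 without BimKO array 1 and -0.01 without array 2. With WT limited to its KLRG1lo arrays 1 and 2 the median was -0.09, and with WT limited to arrays 3 to 5 the value was 0.31. With the background set as a block the median was 0.25, and 18 members had an unadjusted p under 0.05, with 6.17% of all genes, but none passed. By complex, the medians were 0.22 for complex I, where 30 of 36 were above 0, 0.15 for complex IV (7 of 13), 0.13 for complexes II (2 of 4) and III (6 of 8), and 0.07 for complex V (11 of 17). Cycs, the member closest to the action of Bim, was 7.39 and 8.24 in BimKO. Its difference of 0.37 from WT (SE 0.29, adjusted p = 0.697) was smaller than the gap between its replicates. Its 3 probe sets gave 0.37, 0.80 and -0.006, the last from the probe set with a mean of 4.79, below the medians of unnamed probe sets.

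Id2KOBimKO against BimKO sets Id2 loss in a Bim-deficient background, with arrays not used in the comparison of Id2KO with WT. No member passed and no gene did (0%), and no member had an unadjusted p under 0.05, where 1.81% of all genes did. The median was -0.03, with 36 of 85 above 0, beside 0.03 over all genes, and its sign also turned with 1 array left out, with a range of -0.22 to 0.14. With the background set as a block it was -0.13, and 7 members had an unadjusted p under 0.05, with 1.95% of all genes. Ndufa9 was 8.25 and 7.50 in Id2KOBimKO, against 7.27 and 7.72 in BimKO (difference 0.38, SE 0.38). Ndufa1 and Ndufs4 differed by -0.03 (SE 0.26) and -0.05 (SE 0.34). The largest differences were -0.48 (SE 0.23) for the complex I subunit Ndufa5 and 0.50 (SE 0.30) for Uqcrc1, a core protein of complex III. Uqcrc1 was 9.38 and 8.74 in Id2KOBimKO, against 8.40 and 8.71 in BimKO, so the groups did not overlap but the second array of each nearly met.

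The interaction, the Id2 difference in the Bim-deficient background minus that in WT, had a median of -0.31, with 10 of 85 above 0, beside -0.02 over all genes. The Id2KO arrays are part of this contrast. Their sex difference therefore cannot be told apart from it, for the members or for all genes. No member passed, where 0.0277% of all genes did, and none had an unadjusted p under 0.05, where 4.27% of all genes did. Ndufv2 was at -0.59 (95% interval -1.22 to 0.05, adjusted p = 0.726) and Ndufs4 at -0.84 (-1.77 to 0.09). The median was -0.51 without Id2KOBimKO array 1 and -0.14 without array 2. It was nearer 0 with only WT KLRG1lo arrays 1 and 2 (-0.06, 34 of 85 above 0), with array spread as a covariate (-0.07, 29 above 0), with the replicate block (-0.10) and after quantile normalization (-0.15). It was further from 0 with only WT KLRG1lo arrays 3 to 5 (-0.50) and with the background set as a block (-0.43), where 13 members had an unadjusted p under 0.05, with 4.95% of all genes, and none passed. A difference between the backgrounds was therefore not shown, and the median half-width of these intervals was 0.77 log2.

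Complex IV has subunits with tissue-restricted isoforms. The ubiquitous forms Cox4i1, Cox6a1 and Cox6b1 averaged 9.07, 9.11 and 8.86 in WT KLRG1lo cells and lay above the median of unnamed probe sets on all arrays. Their partners Cox4i2, Cox6a2, the muscle form, and Cox6b2, the testis form, averaged 6.13, 6.74 and 5.42, closer to the median of unnamed probe sets, which is no measure of one isoform against another since probes differ. Cox4i1 was 9.14, 9.37 and 9.49 in KLRG1hi and 9.69 and 9.36 in Id2KO, against 9.23, 9.66, 8.85, 8.73 and 8.89 in WT KLRG1lo, and its differences of 0.26 (SE 0.21) and 0.46 (SE 0.24) did not pass. The hypoxia-induced Ndufa4l2 differed by 0.09 (SE 0.22) in KLRG1hi and -0.33 (SE 0.25) in Id2KO, where Ndufa4 differed by 0.20 (SE 0.26) and 0.67 (SE 0.29). Cox5a and Cox5b, both part of every complex IV, differed by 0.18 (SE 0.23) and 0.18 (SE 0.15) in Id2KO.

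Members moved together from array to array, within groups too, which is the tone of whole columns in the heat map. The first component of the 85 members held 63.2% of their variance, and a member's median correlation with the mean of the others was 0.71 over 14 arrays, or 0.76 after group means were removed. Of the members, 60 had r over 0.5, where 25.6% of all genes tested had that with the members' mean. Cox4i1 followed the others most closely (r = 0.98). The 8 with a negative r were Cox6b2, Atp5l, Cox6a2, Cox4i2, Uqcr11, Ndufa4l2, Cox7a1 and Ndufa11, which include 5 tissue-restricted or hypoxia-induced isoforms. These correlations are descriptions, since arrays share their processing.

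That shared movement ran with the spread of the array, the interquartile range of its log2 values, which was 2.44 to 2.87. The members' mean correlated with it at r = 0.814 and rho = 0.771 over the 14 arrays, at r = 0.955 within the 6 arrays of the lower background set and at r = 0.818 within the 8 of the higher set. Without WT KLRG1hi array 1 and WT KLRG1lo array 3, the 2 farthest from the median spread, r was 0.805. The spread was 2.85 ± 0.02 in Id2KO (SD, n = 2) and 2.60 ± 0.15 in WT KLRG1lo (SD, n = 5). Its part in the higher values of Id2KO was not tested. Both Id2KO arrays lay high in spread, at 2.83 and 2.87, so the covariate fit above cannot fully tell spread from genotype. With that covariate 0 members and 3.1% of all genes had an unadjusted p under 0.05 in Id2KO against WT. Without it 13 members and 18.1% of all genes did. The 13 members with the NRF1 core had a median r with the other members of 0.37, against 0.74 for the 58 tested without it. Their median difference was 0.08 in KLRG1hi against KLRG1lo, beside 0.10 without the core, and 0.25 in Id2KO against WT, beside 0.30 without it. In KLRG1hi 13 of 13 were above 0, beside 40 of 58 without the core, and in Id2KO 10 of 13, beside 52 of 58. The 10 members with the YY1 core had a median r of 0.79, against 0.67 without it, and median differences of 0.16 in KLRG1hi, beside 0.08 without the core, and 0.29 in Id2KO, beside 0.27. The 4 with the ETS core had a median r of 0.59, against 0.71, and median differences of 0.04 in KLRG1hi, beside 0.11, and 0.37 in Id2KO, beside 0.27. Outside the chain, the genes that followed the members' mean most closely were Cd3d (r = 0.97), Rab11a, Psma7, Rpl10 and Pfdn5 (0.96 each), genes of the T cell receptor, vesicle traffic, the proteasome, the ribosome and protein folding.

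**Figure D5:**
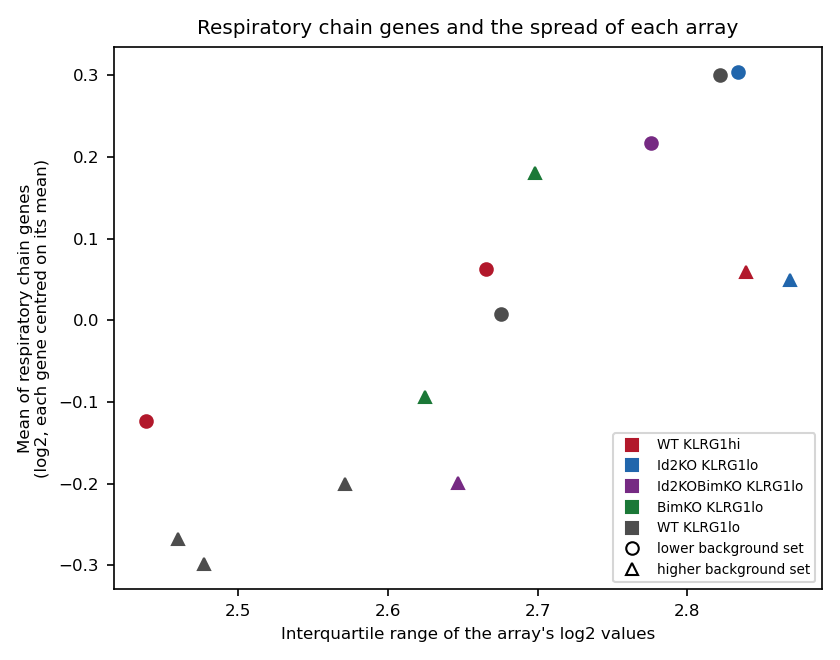
The mean of 85 respiratory chain genes on each array, each gene centred on its mean (vertical, log2), against the interquartile range of the array's log2 values (horizontal), coloured by group and shaped by background set. Points climb to the right, with r = 0.814 over 14 arrays, and WT KLRG1lo arrays 3 to 5 are at the lower left.

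Probe sets of the same gene disagreed for some members. For 18 members with more than 1 probe set, all of a gene's probe sets had the same sign for 13 in KLRG1hi against KLRG1lo and for 13 in Id2KO against WT. The 5 probe sets of Atp5l, the g subunit, gave -0.33, 0.51, -0.20, 0.52 and -0.59 in Id2KO against WT, and Atp5md gave 0.38, -0.61 and 0.79, so the direction of these 2 genes depends on the probe set. In the same comparison Atp5pb gave 0.43 and 0.14, and Cox7a2l gave 0.56 and 0.91, so for these the size depends on it. Cycs gave 0.37, 0.60 and 0.24 in Id2KO against WT, the last from a probe set with a mean of 4.79, below the medians of unnamed probe sets. Several genes of the chain have close copies in the genome, and 6 probe sets that named a member among other genes were left out.

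Genes around the chain were read from lists chosen for this tissue. In Id2KO against WT all 19 TCA cycle genes were above 0 (median 0.41) and none passed. The mitochondrial enzymes Idh2 and Mdh2 differed by 0.56 (SE 0.17) and 0.53 (SE 0.23), both at an adjusted p of 0.275. Medians were 0.44 for 17 genes of fatty acid oxidation, 0.35 for 23 of mitochondrial import and cristae, and 0.40 for 14 of glycolysis, which lies outside the mitochondrion, again with none passed. The list of other subunits of the chain, 9 genes, had a median of 0.03 with 5 above 0. Cell cycle genes went the other way, with 5 of 22 above 0 (median -0.37) and none passed. Tfb2m, a factor for transcription of mitochondrial DNA, differed by 1.08 (SE 0.31, adjusted p = 0.275) in Id2KO. The mitochondrial-genome transcripts ND3 and COX2 differed by 0.77 (SE 0.32) and 0.19 (SE 0.18). On the arrays labelled BimKO, Tfam, which packages mitochondrial DNA, differed by 0.68 (SE 0.22, adjusted p = 0.657). In Id2KOBimKO against WT, Tfb2m differed by 1.09 (SE 0.31, adjusted p = 0.785) and 18 of 19 TCA cycle genes were above 0 (median 0.21).

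In KLRG1hi against KLRG1lo, none of 19 TCA cycle genes passed (median 0.07). Of 18 genes of mitochondrial biogenesis and transcription, 1 passed: Myc, a transcription factor for growth and mitochondrial genes, fell by 1.32 log2 in KLRG1hi (SE 0.22, adjusted p = 0.0056), while their median was -0.07. Of 22 cell cycle genes, 7 rose (median 0.65), where 0.942% of all genes passed in either direction. Among the 7 were Mki67 by 0.90 (SE 0.19, adjusted p = 0.0259) and Kif11 by 1.05 (SE 0.19, adjusted p = 0.0107). The apoptosis partners of cytochrome c, 11 genes, had a median of 0.06 with none passed, and Apaf1, which cytochrome c activates, was at 0.25 (SE 0.21, adjusted p = 0.951).

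Markers of other cell types were also lower in Id2KO than in WT KLRG1lo, without passing, by amounts that depended on the WT arrays used. All 6 monocyte and macrophage markers tested were below 0 (median -0.53), as were 5 of 5 neutrophil markers (-0.54), 4 of 4 of red cell precursors (-0.71) and 5 of 6 B cell markers (-0.52), while 8 of 8 CD8 T cell markers were above 0 (0.33). The summed linear signal of monocyte and macrophage markers was 363 to 380 in Id2KO and 415 to 949 in WT KLRG1lo, and that of CD8 T cell markers was 25165 to 29430 in Id2KO and 19456 to 24398 in WT KLRG1lo. B cell sums were 324 and 281 in Id2KO and 297 and 302 on WT KLRG1lo arrays 1 and 2. On WT arrays 3 to 5 they were 826, 781 and 619. Red cell precursor sums were 195 and 181 in Id2KO and 217 and 187 on WT arrays 1 and 2. On WT arrays 3 to 5 they were 441, 345 and 597. Monocyte and macrophage sums on WT arrays 1 and 2 were 415 and 466, still above Id2KO. Neutrophil sums were 250 and 214 in Id2KO and 275 and 246 on those WT arrays. In KLRG1hi against KLRG1lo the medians were -0.34 for monocyte and macrophage, -0.18 for neutrophil, -0.42 for red cell precursor and -0.41 for B cell markers. Of 4 NK cell markers there 1 rose, Klrb1c, an NK receptor that effector CD8 T cells can also carry, by 2.92 (SE 0.29, adjusted p = 3.12e-05). No marker was at 0 on an array. The part of these cells in the respiratory chain values was not tested.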

How the data were processed

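The authors deposited, per the labels and the submitters' processing notes, RMA signal for 34760 probe sets, an intensity on a linear scale (the scale was read from the values), with mouse build mm9 named and RMA given without a version. RNA was amplified before labelling, per the labels' protocols. Scanner files were not used here, so centring against them is unknown. Values were turned into log2 with no offset. Of the probe sets, 21640 had 1 gene symbol, 1321 several and 11799 none. The probe set with the highest mean stood for a gene, and a gene was tested when above the array's 40th percentile on at least 2 arrays. A group-means model over 14 arrays was fitted with limma 3.58.1 (R 4.3.3, with the data.table package in version 1.17.8; 9 residual and 7.99 prior degrees of freedom). Adjusted p-values are limma's with Benjamini-Hochberg adjustment over all genes tested, two-sided, threshold 0.05. Comparisons with WT KLRG1lo share its arrays. The fit was tested on simulated data with independent noise for each gene and array. That test lacks the shared movement of genes across arrays, so it says nothing on it. Few arrays per group limit the precision.

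The members and lists were chosen with earlier results of these data known. Named members were the 5 with the smallest unadjusted p per comparison, the 2 smallest per complex in KLRG1hi against KLRG1lo and in Id2KO against WT, 7 isoform pairs and Cox7a2l, up to 4 genes per other list, and up to 5 genes most like the members' mean. Ndufb6, Ndufb11, Cox7b, Atp5l, Atp5md and the genes with negative correlations were named after their values were seen. Alternatives covered the filter, normalization, probe sets, offset, fit, weights, samples, a replicate block, array spread and each array left out.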

Additional observations from a re-analysis of the deposited data

How the results depend on the processing

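No member passed in any comparison under other filters, normalizations, probe set rules, an offset of 16, a robust fit, fits on only the groups compared, the replicate block, array spread as a covariate, the background set as a block, or with any array left out. With array quality weights 29 members passed in KLRG1hi against KLRG1lo, where 30.9% of all genes did, and 19 in Id2KO against WT, where 22.4% did. In Id2KOBimKO against WT 1 member passed, Cox7a1, where 0.367% of all genes did. That fit stopped before it converged. With the gene-by-gene weights, chosen after seeing the data, the first 2 counts were 3 and 13, where 7.87% and 17.7% of all genes passed. With only WT KLRG1lo arrays 3 to 5, also chosen after seeing the data, 7 passed in Id2KO against WT, where 4.9% of all genes did. The cause was not tested. Leaving out each array in turn gave 0 members in each comparison, and medians of 0.03 to 0.17 for KLRG1hi against KLRG1lo, 0.15 to 0.41 for Id2KO against WT, -0.10 to 0.35 for Id2KOBimKO against WT, -0.01 to 0.30 for BimKO against WT, -0.22 to 0.14 for Id2KOBimKO against BimKO and -0.51 to -0.14 for the interaction.

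Signs turned for Atp5d (-0.0382), Sdha (-0.109), Uqcrc2 (-0.0813) and Uqcrh (-0.0874) in Id2KO against WT with array spread as a covariate. With only WT KLRG1lo arrays 1 and 2, Cycs was at -0.0521 in Id2KO against WT, and Cycs, Sdhb and Uqcrfs1 were at -0.209, -0.0778 and -0.0781 in KLRG1hi against KLRG1lo. In KLRG1hi against KLRG1lo Sdhd ran from -0.0454 (without KLRG1hi array 3) to 0.465 (without KLRG1hi array 1) as arrays were left out. With the replicate block, Sdhb was at -0.00857 in KLRG1hi against KLRG1lo, and the members' median was -0.006 in KLRG1hi against KLRG1lo and 0.12 in Id2KO against WT. Whether equal replicate numbers pair the arrays was not settled. Correlations of deviations from group means ran from -0.52 to 0.41 over 21 pairs of arrays with equal numbers. Over 54 pairs with unequal numbers they ran from -0.67 to 0.65. In groups of 2 arrays these deviations mirror each other, so such correlations cannot decide it. Replicate numbers 4 and 5 occur only in WT KLRG1lo, and number 3 only in the WT groups. With the block, WT KLRG1lo arrays 4 and 5 each have a term of their own and add nothing to any comparison. Changes under the block therefore cannot be read as an adjustment for pairing alone. The block left 0 members past the adjusted threshold in each comparison. Members with an unadjusted p under 0.05 numbered 0 in Id2KO against WT (13 without the block), with 6.51% of all genes (18.1% without). They numbered 0 in KLRG1hi against KLRG1lo (1 without), with 4.38% of all genes (7.2% without). In BimKO against WT there were 0 (1 without), with 4.78% of all genes (6.91% without). In Id2KOBimKO against WT there was 1 (2 without), with 2.31% of all genes (3.95% without). Over all genes, 42 passed in KLRG1hi against KLRG1lo (136 without the block), 5 in Id2KO against WT (16 without) and 0 in Id2KOBimKO against WT (9 without). Quantile normalization gave a median of 0.10 in Id2KO against WT. Low signal limits Cox7a1, Cox4i2 and Cox6b2, which lie near unnamed probe sets.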
